A study of Mus musculus with 64 samples.

Results

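Hif1a and 9 genes known as targets of hypoxia signaling were followed through the RNA of mouse pancreatic tumor cell lines grown alone or with fibroblasts. The targets were Vegfa, Car9, Egln1, Egln3, Ndrg1, Bnip3, Ankrd37, Adm and P4ha1. The genes were taken by symbol from a list of names, and 10 of 10 were present among the 39017 genes of the count table. Of the 8 lines, 7 were clones subcloned from the cells of a single mouse pancreatic tumor (Trp53+/R172H; Pdx1-Cre, a Cre driven by the promoter of a pancreatic transcription factor), and the remaining line was KPC1. All lines carried the strain label C57BL/6 mixed, and each line is 1 clone or 1 cell line, so that a line stands for itself and not for a set of animals. For each line, 4 libraries came from tumor cells grown alone (mono-culture), and another 4 came from GFP-positive tumor cells sorted after being grown with fibroblasts for 48 h (coculture), which makes 64. The study placed clones E, H and V in group 1 and clones K, M, N and T in group 2 by their metabolism, and it placed KPC1 in neither. The labels do not say that the 4 replicates of a group came from separate cultures, nor that mono-cultures were sorted, so the p-values below measure the spread between these libraries or lines only. Oxygen levels during culture were not given in the sources used here.

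HIF1A is the oxygen-regulated subunit of hypoxia-inducible factor. When oxygen is present, prolyl hydroxylases of the EGLN family mark the HIF1A protein for breakdown through VHL, so that its activity is set mainly at the protein and is not read directly from its transcript. Stabilized HIF1A pairs with ARNT, binds short DNA cores near its targets and raises genes for glycolysis, vessel growth, pH control and collagen modification. Pancreatic tumors are known for dense stroma and poor oxygen supply.

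The members spanned a wide range of transcript levels. On the authors' RPKM scale, which divides reads by gene length and library size, Hif1a had the highest median over the 64 libraries at 74.1, followed by Egln3 at 71.4, Vegfa at 60.9, Ndrg1 at 44.1 and P4ha1 at 28.4. The ranges of these 5 genes over libraries overlapped, from 14.0 for the lowest P4ha1 library to 185 for the highest Egln3 library. Bnip3 followed with a median of 10.2 RPKM, then Egln1 with 9.48 and Ankrd37 with 1.59. Car9 and Adm were close to the detection limit, with medians of 0.119 and 0.0796 RPKM and at most 18 and 63 reads in any library. Car9 had no read in 3 libraries and Adm in 17. On GRCm38 (GENCODE M21) Hif1a lies on chromosome 12 (73901375 to 73947530, plus strand), as does Egln3 (54178981 to 54203860, minus strand). Bnip3 (138890836 to 138909519, minus strand) and Adm (110627661 to 110629820, plus strand) lie on chromosome 7. Ankrd37 (45996902 to 46005707, minus strand) and Egln1 (124908587 to 124949324, minus strand) lie on chromosome 8. P4ha1 (59323296 to 59373304, plus strand) lies on chromosome 10, Ndrg1 (66929318 to 66969640, minus strand) on chromosome 15, Vegfa (46016993 to 46032369, minus strand) on chromosome 17 and Car9 (43506966 to 43513729, plus strand) on chromosome 4. Ankrd37 overlaps Ufsp2 and Lrp2bp on the opposite strand and Hif1a overlaps the gene model Gm49321 on its own strand. The libraries were strand-specific, but whether the counting used strand was not given, so reads in these overlaps are uncertain.

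Promoters of the members were searched for ACGTG and GCGTG, the letters of the core that HIF is known to bind, on both strands of the 250 bases before the start site in RefSeq (GRCm38.p6). Of the 10 members, 9 had a promoter entry (Vegfa had 2 entries, with different start sites). ACGTG occurred before 8 of these 9 members and in 16.6% of all 32851 promoters, and GCGTG occurred before 6 of 9 and in 28.2% of all promoters. A member counted if any of its entries held a match, whereas the background is per promoter. Vegfa counted for both motifs through its entry inside the gene, while its upstream entry held neither. The windows of Hif1a and Ankrd37 also lie wholly inside the GENCODE gene spans given above. A match is a run of letters and not a measured binding site. The promoters of Hif1a and of the 5 members that varied together between replicate libraries (described further on) are shown 5′ to 3′ on the strand of the gene, with every match on either strand in capitals. In Hif1a, Bnip3 and Ankrd37 a palindrome is matched on both strands.
Hif1a: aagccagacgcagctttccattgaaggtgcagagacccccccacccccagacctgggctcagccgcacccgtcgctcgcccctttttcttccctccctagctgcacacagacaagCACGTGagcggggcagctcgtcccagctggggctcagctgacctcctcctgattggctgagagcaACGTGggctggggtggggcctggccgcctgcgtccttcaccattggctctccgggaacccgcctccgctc
Egln3: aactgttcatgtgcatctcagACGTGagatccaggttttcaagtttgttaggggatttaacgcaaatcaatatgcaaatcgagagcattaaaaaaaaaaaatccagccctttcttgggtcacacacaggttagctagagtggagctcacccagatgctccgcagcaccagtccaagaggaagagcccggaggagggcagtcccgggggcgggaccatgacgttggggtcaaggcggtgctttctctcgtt
P4ha1: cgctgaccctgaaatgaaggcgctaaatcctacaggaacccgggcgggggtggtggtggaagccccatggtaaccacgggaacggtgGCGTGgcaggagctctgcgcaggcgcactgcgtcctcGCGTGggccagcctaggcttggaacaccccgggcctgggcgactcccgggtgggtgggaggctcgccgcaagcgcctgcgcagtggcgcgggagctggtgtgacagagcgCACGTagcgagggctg
Bnip3: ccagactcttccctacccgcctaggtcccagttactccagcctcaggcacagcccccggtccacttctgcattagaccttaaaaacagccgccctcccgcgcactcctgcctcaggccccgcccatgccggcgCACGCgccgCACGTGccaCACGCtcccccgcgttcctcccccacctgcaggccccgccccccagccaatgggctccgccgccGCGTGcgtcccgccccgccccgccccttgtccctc
Ankrd37: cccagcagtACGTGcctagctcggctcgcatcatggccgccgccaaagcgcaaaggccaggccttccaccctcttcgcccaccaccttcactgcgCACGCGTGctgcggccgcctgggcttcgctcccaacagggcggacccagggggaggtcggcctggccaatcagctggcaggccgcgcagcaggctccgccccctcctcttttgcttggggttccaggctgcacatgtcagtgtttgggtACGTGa
Adm: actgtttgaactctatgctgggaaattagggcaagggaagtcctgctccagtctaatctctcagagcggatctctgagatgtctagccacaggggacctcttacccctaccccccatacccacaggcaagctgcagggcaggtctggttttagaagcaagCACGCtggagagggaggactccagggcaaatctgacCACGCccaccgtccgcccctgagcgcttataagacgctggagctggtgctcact
These windows cover chr12:73907617-73907866 (plus strand) for Hif1a, chr12:54203875-54204124 (minus) for Egln3, chr10:59323046-59323295 (plus) for P4ha1, chr7:138909507-138909756 (minus) for Bnip3, chr8:45999851-46000100 (minus) for Ankrd37 and chr7:110627407-110627656 (plus) for Adm. Bnip3 held 2 ACGTG and 3 GCGTG matches, Ankrd37 held 2 of each (its 2 GCGTG matches being the strands of 1 palindrome), and P4ha1 held 1 and 2. Egln3 held 1 ACGTG match, 229 bases before its start, and no GCGTG. Adm held 2 GCGTG matches and no ACGTG. Hif1a held 3 ACGTG matches, 2 of them the strands of 1 palindrome.

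Library totals ran from 11178721 to 21333683 reads. The keratin genes Krt8 and Krt18 were at or above 314 CPM (read counts scaled to library size) in the mean of every line and culture, whereas Epcam stayed at or below 0.370 CPM. The 4 defining fibroblast genes Dcn, Fap, Postn and Thy1 summed to between 0 and 0.201 CPM in mono-culture libraries and to between 14.6 and 155 CPM in coculture libraries, and Thy1 was at 0 in every mono-culture. Over the whole fibroblast list, 12 of 18 tested markers were higher and 1 was lower in coculture, and the summed list ran from 1929 to 13379 CPM in mono-culture and from 2771 to 13555 CPM in coculture. Their part in the results below was not tested. In these bulk libraries, fewer cells of a type and less RNA per cell cannot be told apart.

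**Figure D1:**
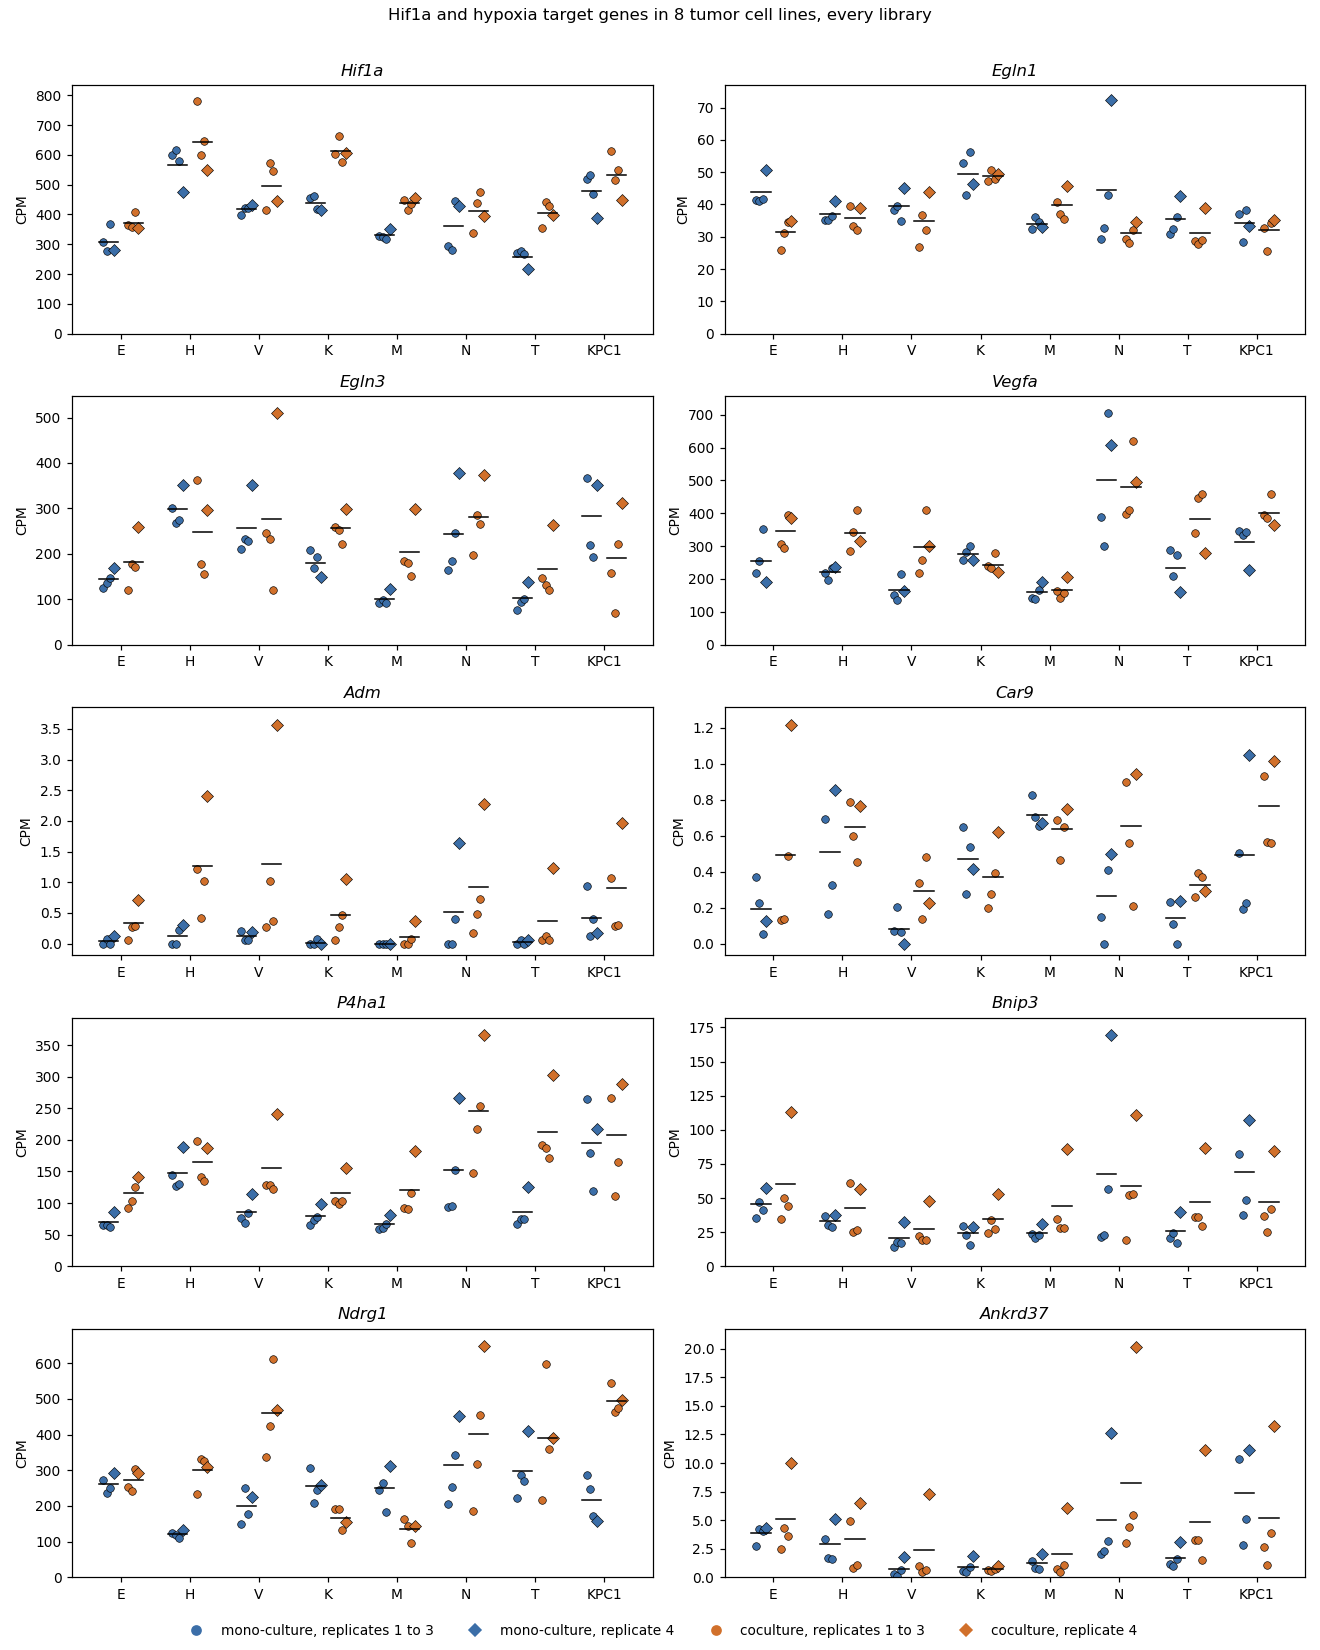
CPM of each member (vertical axes from 0, or just below 0 for Adm and Car9 so that zeros show) in every library of the 8 lines; blue points are mono-culture, orange points coculture, diamonds replicate 4 and bars the mean of 4 libraries. Diamonds are the highest of their 4 libraries in 16 of 16 combinations of line and culture for Ankrd37, and in 3 of 16 for Hif1a.

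The first comparison asked whether the tumor cells changed these genes after coculture, with the 8 lines as replicates (reads of the 4 libraries summed, edgeR's quasi-likelihood test with line as a covariate, called at a Benjamini-Hochberg adjusted p under 0.1 over 14478 genes). Hif1a, Adm, P4ha1, Vegfa and Car9 were higher after coculture, and no member was lower. These were 5 of 10 members, where 27.2% of all tested genes were called higher and 27.4% lower. Adm counts among the 5, though it passed the filter on low counts mainly through its coculture reads. Its call is therefore not independent of that filter. The median log2 fold change of the 10 members was 0.37, against -0.0009 for all tested genes.

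Adm encodes adrenomedullin, a secreted peptide that widens and stabilizes vessels. It gathered 78 reads over 32 mono-culture libraries, 15 of which had none, and 363 reads over 32 coculture libraries, 2 of which had none. Line means ran from 0 through a median of 0.0887 to 0.512 CPM in mono-culture and from 0.111 through 0.685 to 1.30 CPM in coculture. Adm was higher in 8 of 8 lines, with a log2 fold change of 2.52 (SE 0.44; edgeR adjusted p = 0.00264). It passed the filter on low counts mainly through its coculture reads. In the mono-cultures of the clones alone, Adm did not pass that filter. Line M had no Adm read in mono-culture and 6 in coculture, so the fitted size depends on the prior count that edgeR adds.

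P4ha1, the catalytic subunit of the enzyme that hydroxylates collagen prolines, had line means from 66.8 through a median of 85.9 to 195 CPM in mono-culture and from 116 through 161 to 246 CPM in coculture. Over the 8 lines it rose by 0.66 on the log2 scale, with a higher mean in 8 of 8 (SE 0.12; edgeR adjusted p = 0.00287). Hif1a itself had line means of 259, 390.0 and 568 CPM (lowest, median and highest) in mono-culture and of 371, 467 and 644 CPM in coculture. Over the lines it rose by 0.32, also with a higher mean in 8 of 8 (SE 0.06; edgeR adjusted p = 0.00434). The spread between lines was thus wider than the shift within a line.

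Vegfa, the main angiogenic ligand, had line means of 159, 243 and 501 CPM in mono-culture and 166, 342 and 480.3 CPM in coculture. It was higher in 6 of 8 lines, with a log2 fold change of 0.36 (SE 0.12; edgeR adjusted p = 0.0346). Car9, a membrane carbonic anhydrase that keeps cell pH, gathered 184 reads in mono-culture and 255 in coculture over all lines. Its log2 fold change was 0.65 (SE 0.24; edgeR adjusted p = 0.0485), and it was higher in 6 of 8 lines. The Car9 call was lost without line E, N or T and without the libraries numbered replicate 2 or replicate 4, with adjusted p between 0.0113 and 0.118 over its 21 alternatives.

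The other 5 members did not pass the test. Ankrd37, an ankyrin-repeat protein, had a log2 fold change of 0.56 (SE 0.26; edgeR adjusted p = 0.101) and Bnip3, a mitochondrial protein of mitophagy, of 0.33 (SE 0.15; adjusted p = 0.103). Both lay at the threshold, and in the 7 clones without KPC1 both and Egln3 were called, which made 8 members higher and none lower. The share of all genes called without KPC1 is not given here. Ndrg1, a stress-responsive gene linked to growth arrest, had 0.38 (SE 0.26; adjusted p = 0.258). The oxygen-sensing hydroxylases differed in sign: Egln3 had 0.26 (SE 0.15; adjusted p = 0.181) and Egln1 had -0.16 (SE 0.09; adjusted p = 0.158). Egln1 was lower in 7 of 8 lines. In an exact sign-flip permutation test over the 8 lines (two-sided, 10 tests, unadjusted), Hif1a, Adm and P4ha1 reached 0.00781, the smallest p that 256 sign patterns allow.

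Without the libraries numbered replicate 4, Hif1a, P4ha1 and Vegfa were called higher and Egln1 lower (edgeR adjusted p = 0.0957), while Car9 lost its call and Adm no longer passed the filter on low counts. With the 64 libraries as replicates and the line as a covariate, 9 members were higher and 1, Egln1, was lower. Libraries of the same line are not independent lines, so that fit overstates the replication. The share of all genes called in it is not given here.

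Other genes of the pathway are given beside the shares of all tested genes, 27.2% higher and 27.4% lower. Among 13 tested HIF subunits and oxygen sensors beyond the members, 3 were higher and 5 lower, close to those shares. Cul2 and Eloc, parts of the VHL ligase, rose by 0.49 (SE 0.07) and 0.45 (SE 0.10), and Arnt2, a neuronal HIF partner, by 1.64 (SE 0.33) from a mean of 0.686 CPM. Crebbp, a HIF coactivator, fell by 0.56 (SE 0.06), Ep300, its paralog, by 0.33 (SE 0.05), and Egln2, the third prolyl hydroxylase, by 0.45 (SE 0.08), each lower in 8 of 8 lines (edgeR adjusted p from 0.000555 to 0.00555 for these 6 genes).

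Of 19 glycolytic HIF targets, 12 were higher and 2 lower, with a median log2 fold change of 0.25 (all genes: 27.2% higher, 27.4% lower). Aldoa rose by 0.65 (SE 0.08), Hk2 by 0.75 (SE 0.16) and Pgk1 by 0.50 (SE 0.11), each with a higher mean in 8 of 8 lines, whereas Aldoc fell by 0.55 (SE 0.12) and Pfkfb4 by 0.25 (SE 0.09). Among 34 other hypoxia targets, 19 were higher and 5 lower, with a median of 0.41, against the same shares of all genes. The lysyl oxidase gene Lox went from 0.109 to 65.0 CPM, a log2 fold change of 9.24 (SE 0.23), Tfrc, the transferrin receptor, rose by 0.99 (SE 0.13) and Mif, a cytokine, by 1.02 (SE 0.15). The demethylase gene Kdm3a fell by 0.30 (SE 0.05), Zfp395 by 0.73 (SE 0.11) and Mxi1 by 0.21 (SE 0.06). Lox is also a product of fibroblasts, whose markers were higher in the same libraries.

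Of 12 receptors, accessory proteins and related ligands that are partners of VEGF and adrenomedullin, 4 were higher and 2 lower, close to the 27.2% and 27.4% of all genes. Calcrl, the adrenomedullin receptor, went from 0.412 to 2.20 CPM (log2 fold change 2.92, SE 0.44) and its accessory protein Ramp3 from 0.483 to 1.61 CPM (2.07, SE 0.41), both in 8 of 8 lines. The VEGF family ligand Pgf went from 8.92 to 16.6 CPM (1.60, SE 0.33). By contrast, the VEGF coreceptor Nrp1 fell by 0.79 (SE 0.21) and the accessory protein Ramp2 by 0.87 (SE 0.32).

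The members also differed between libraries of the same line and culture, and did so together. In a fit over all 64 libraries with group and replicate number as terms, chosen after the values were seen, replicate number was called for 28.3% of 14134 genes and for 8 of the 10 members. Ankrd37 ranked 4 among all genes (edgeR adjusted p = 7.58e-10), Bnip3 15 (5.97e-08) and P4ha1 17 (2.38e-07). Hif1a (adjusted p = 0.227) and Ndrg1 (0.199) were not called.

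The libraries numbered replicate 4 stood highest. Ankrd37 was highest in replicate 4 in 16 of 16 combinations of line and culture, Bnip3 and P4ha1 in 14, Egln3 in 13 and Adm in 12. Being highest in replicate 4 in at least 12 of 16 combinations was true of these 5 members and of 0.715% of all tested genes, a bound set after the values were seen. Egln1 followed with 11 of 16 and Car9 with 9, whereas Hif1a and Vegfa each had 3. Vegfa was instead highest in replicate 3 in 11 of 16 combinations (edgeR adjusted p = 0.00225 for replicate number). No member reached 12 combinations with replicate 1, 2 or 3.

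In coculture, Ankrd37 over the 8 lines ran from 0.991 through a median of 8.67 to 20.1 CPM in replicate 4, against 0.600 through 2.55 to 4.89 CPM in replicate 1. In mono-culture the same gene ran from 1.74 through 3.69 to 12.6 CPM in replicate 4 and from 0.272 through 1.72 to 10.4 CPM in replicate 1. The difference between replicate 4 and the mean of the other numbers was 1.80 on the log2 scale for Ankrd37, 2.00 for Adm and 1.07 for Bnip3. It was 0.63 for P4ha1, 0.62 for Egln3, 0.25 for Egln1, -0.06 for Vegfa and -0.10 for Hif1a.

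Single combinations showed this plainly. In line V after coculture Ankrd37 stood at 0.936, 0.473, 0.663 and 7.31 CPM in replicates 1 to 4 and P4ha1 at 129, 129, 122 and 242 CPM. In line N in mono-culture Bnip3 stood at 21.7, 22.9, 56.4 and 169 CPM. There were exceptions. In KPC1 in mono-culture P4ha1 was 264, 179.8, 119 and 218 CPM and Egln3 366, 218, 192 and 352 CPM, so replicate 1 stood highest, whereas Bnip3 (82.4, 37.3, 48.4 and 107 CPM) and Ankrd37 (10.4, 2.85, 5.07 and 11.1 CPM) were highest in replicate 4. In line H after coculture replicate 1 was highest for Bnip3 (61.4, 25.3, 26.8 and 56.8 CPM), P4ha1 (199, 142, 134 and 187 CPM) and Egln3 (363, 179, 156 and 296 CPM). Hif1a in the KPC1 mono-culture libraries was 519, 531, 470.1 and 388 CPM.

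The same libraries were high for other genes of the pathway. Of 19 glycolytic HIF targets, 13 were highest in replicate 4 in at least 12 of 16 combinations, among them Pgk1 (16 of 16, log2 difference 0.90), Slc16a3, a lactate exporter (14 of 16, 1.33), and Pdk1 (14 of 16, 1.05). Of 35 other hypoxia targets, 6 did so, including Tfrc and Fam162a (16 of 16 each); these genes were named after their values were seen. Of the 13 HIF subunits and sensors none did, nor did any of the 14 immediate-early or 9 epithelial markers. Fibroblast genes at or near 0 in mono-culture could not reach that bound, but 9 of the 18 fibroblast markers were called for replicate number, with a median difference of 0.37 for replicate 4, against 0.39 for the glycolytic targets. The summed 4 defining fibroblast genes rose over the numbers after coculture, with medians over lines of 31.4, 51.7, 77.0 and 100.3 CPM in replicates 1 to 4. In mono-culture they stayed at or below 0.194 CPM in replicate 4. Library totals of replicate 4 ran from 12754608 to 19007467 reads. Replicate 4 was present in every line and culture, and what the number stands for was not given.

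**Figure D2:**
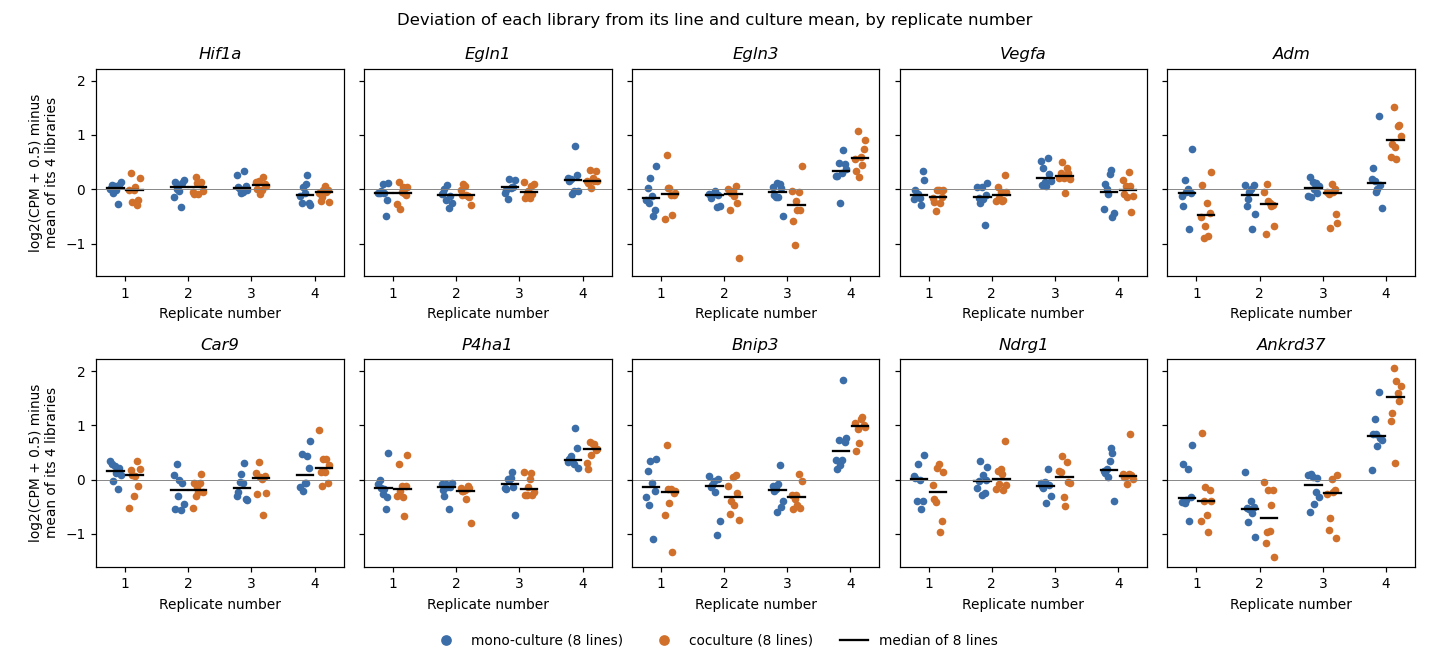
Deviation of each library from the mean of its 4 libraries (log2 of CPM + 0.5, vertical axis) against replicate number (horizontal axis) for the 10 members; blue points are the 8 lines in mono-culture, orange points the 8 lines in coculture, and bars medians over lines. Replicate 4 lies above the others for Ankrd37, Bnip3, P4ha1, Egln3 and Adm, while Vegfa is highest in replicate 3 in 11 of 16 combinations and Hif1a in replicate 4 in 3 of 16.

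These deviations were correlated between members. Among the 15 pairs of Egln1, Egln3, Bnip3, Ankrd37, Adm and P4ha1, Pearson's r of the library deviations was between 0.61 and 0.85 over the 32 mono-culture libraries and between 0.74 and 0.92 over the 32 coculture libraries. With the mean of each replicate number removed as well, r was between 0.45 and 0.72 over the 64 libraries. These 6 genes were grouped after the values were seen. Hif1a and these 6 genes had r between -0.01 and 0.38 in mono-culture and between -0.19 and 0.14 in coculture, but between 0.24 and 0.59 over the 64 libraries with the mean of each replicate number removed. Hif1a with Vegfa had r = 0.75 in mono-culture, 0.38 in coculture and 0.60 with the number removed, next to 0.59 for Hif1a with Bnip3, 0.54 with P4ha1 and 0.53 with Ndrg1. The points share library size factors and, within a line, 1 clone, and r describes these libraries only. In coculture the deviation of the 4 defining fibroblast genes had r = 0.67 with Adm, 0.61 with P4ha1, 0.49 with Bnip3, 0.48 with Ankrd37, 0.47 with Egln1, 0.35 with Egln3 and -0.03 with Hif1a, over 32 libraries.

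**Figure D3:**
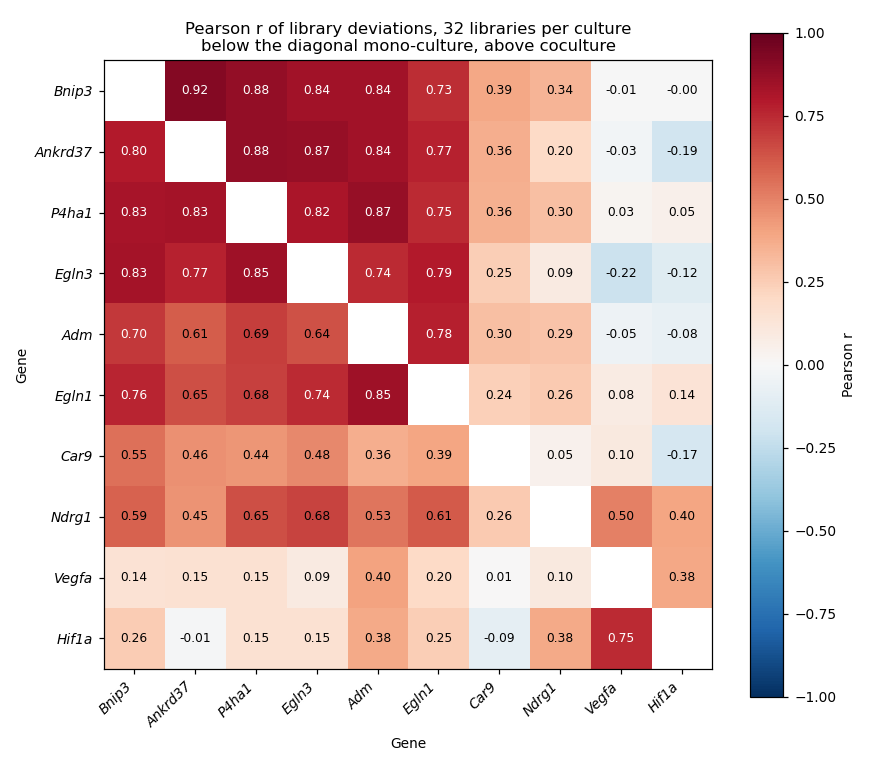
Pearson's r between members of the library deviations from their line and culture mean, for 32 mono-culture libraries (below the diagonal) and 32 coculture libraries (above it); both axes list the genes. The 6 genes from Bnip3 to Egln1 form a block with r of at least 0.61, and Hif1a with these 6 has r between -0.19 and 0.38; the replicate number is not removed here.

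The second comparison took each line by itself, with its 4 libraries per culture as replicates (edgeR over 14134 genes). Of 80 pairs of member and line, 27 were called higher and 4 lower after coculture. Among all genes, the share called higher ran from 12.5% in K to 32.1% in E. The share called lower ran from 8.02% in K to 31.5% in V. The ranges of the 4 mono-culture and 4 coculture libraries did not overlap in 22 of 80 pairs, 19 of them higher and 3 lower, where 18.3% of all pairs of gene and line were entirely higher and 16.9% entirely lower. Of the 31 called pairs, 16 kept their call under every alternative in which they were fitted.

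The lines differed in how many members they moved. In line V, 7 members were higher and none lower, where 30% of all genes were higher and 31.5% lower. In line T, 6 were higher and none lower (31.5% and 30.7% of all genes). In line E, 4 were higher and 1 lower (32.1% and 29.2%). In line H, 3 were higher and none lower (21.4% and 22.6%), and in line M, 3 were higher and 1 lower (21.6% and 17.3%). In line K, 2 were higher and 1 lower (12.5% and 8.02%), and in line N, 1 was higher and 1 lower (20% and 17.4%). KPC1 had 1 member higher and none lower (20.1% and 19%).

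Ndrg1 had the smallest p of the members for a difference in response between lines. In line H it stood at 123, 119, 111 and 132 CPM in mono-culture and at 233, 332, 326 and 308 CPM in coculture. In KPC1 it stood at 287, 247, 170.2 and 159 CPM and at 546, 464, 475 and 497 CPM, and in line V at 149.8, 249, 177 and 225 CPM and at 338, 423, 611 and 470.0 CPM. The groups did not overlap in these 3 lines, and Ndrg1 rose by 1.30 in H, 1.20 in KPC1 and 1.20 in V (SE 0.25 each; edgeR adjusted p = 5.86e-05, 0.000265 and 5.81e-05).

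In lines M and K the same gene went the other way. In M it stood at 245, 263, 183 and 313 CPM in mono-culture and at 163, 143, 95.4 and 144 CPM in coculture, and it fell by 0.88 (SE 0.25; edgeR adjusted p = 0.0052). In K it stood at 306, 208, 244 and 259.7 CPM and at 191, 189.9, 132 and 156 CPM, a fall by 0.61 (SE 0.25; adjusted p = 0.0902) that was lost without replicate 1, 3 or 4. In E, N and T the cultures overlapped, with 242 to 303 CPM in E after coculture against 235 to 292 CPM in mono-culture. The line-by-culture term of Ndrg1 passed the test (edgeR adjusted p = 2.13e-07, rank 755 of 14134).

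Tested line by line, Hif1a was called higher in 5. In T it stood at 271, 278, 269 and 217 CPM in mono-culture and at 353, 441, 430.0 and 399 CPM in coculture, a rise by 0.65 (SE 0.12; edgeR adjusted p = 1.26e-05). In K and M the cultures were also apart, with rises by 0.48 and 0.41 (SE 0.12 each; adjusted p = 0.00362 and 0.00824). The calls in E (0.27) and V (0.24) were each lost without one of the replicates, and H, N and KPC1 had 0.18, 0.19 and 0.16 with no call.

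Taken singly, P4ha1 was called higher in E, V, M, N and T. Its adjusted p stayed under 0.1 in 12 of 13 alternatives in E and in V, and in 10 of 13 in N. The largest rise was in T, from 66.8, 75.4, 75.4 and 125 CPM to 192, 187, 171 and 303 CPM, by 1.31 (SE 0.29; edgeR adjusted p = 0.000108). KPC1 had 0.09 with no call, its libraries running from 119 to 264 CPM in mono-culture and from 111 to 289 CPM in coculture. Vegfa rose in E, H, V and T, and in E its adjusted p stayed under 0.1 in 11 of 13 alternatives. In V it went from 137 to 215 CPM over the 4 mono-culture libraries to 219 to 409.9 CPM over the 4 coculture libraries, by 0.84 (SE 0.20; adjusted p = 0.000432). In line N, where Vegfa was highest, it was not called (389, 302, 707 and 607 CPM against 397, 410.1, 619 and 495 CPM).

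The other calls were fewer. Egln3 rose in M, from 92.2, 98.0, 90.8 and 123 CPM to 184, 180.1, 152 and 299 CPM, by 1.01 (SE 0.32; edgeR adjusted p = 0.0125), and in T by 0.69 (SE 0.32; 0.0622). In T the adjusted p of Egln3 stayed under 0.1 in 10 of 13 alternatives, and its lowest log2 fold change was 0.114. Egln1 fell in E, from 41.5, 41.2, 41.8 and 50.7 CPM to 25.9, 31.3, 34.5 and 34.8 CPM, by 0.47 (SE 0.16; 0.00964). Its fall by 0.52 in N (adjusted p = 0.0106) rested on the libraries of replicate 4, without which it was -0.23 with adjusted p = 0.219. Adm went from 9 to 92 reads in H and from 8 to 88 reads in V (log2 fold changes 3.10 and 3.35, SE 0.98 and 1.00; edgeR adjusted p = 0.0107 and 0.00392), and was also called in K (1 against 29 reads) and T (2 against 21 reads). Replicate 4 held 47 of the 92 coculture reads in H and 63 of the 88 in V. It held 17 of the coculture reads in K and 17 in T. The adjusted p of Adm stayed under 0.1 in 13 of 13 alternatives in H and in V, in 8 of 12 in K and in 8 of 13 in T. The calls of Car9 in E and V and of Ankrd37 in V and T were lost when single replicate numbers were left out. Bnip3 was called in no line.

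**Figure D4:**
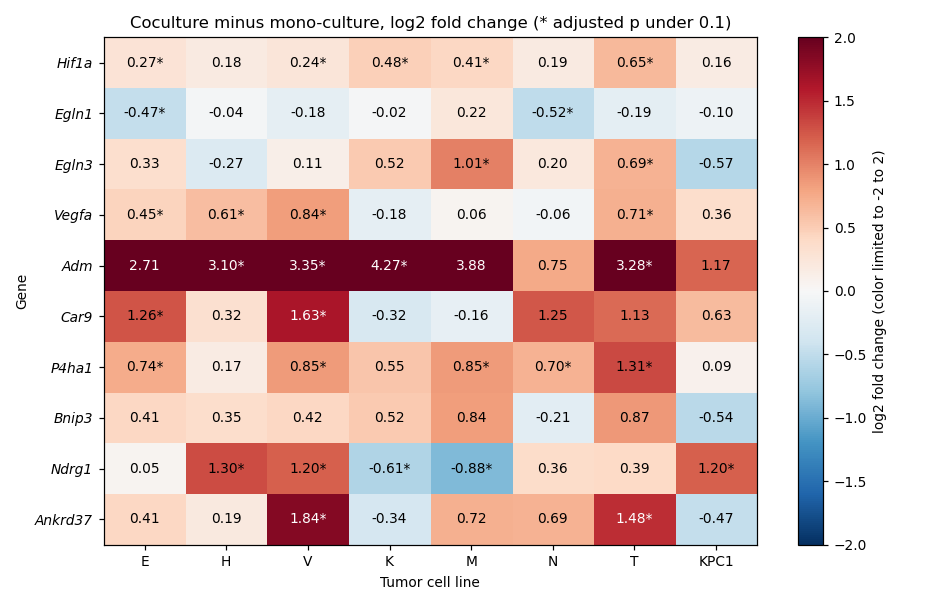
Log2 fold change of coculture over mono-culture for each member (rows) in each line (columns), from edgeR with 4 libraries per culture; the color is limited to -2 to 2 and an asterisk marks an adjusted p under 0.1. Ndrg1 is the row with called values of both signs, from -0.88 in M to 1.30 in H.

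Whether the response differed between lines was tested with a line-by-culture term over the 64 libraries. It was called for 5 of 10 members, where 71.3% of all genes were called: Ndrg1, Vegfa (edgeR adjusted p = 0.00802), Egln3 (0.0397), Egln1 (0.0535) and Hif1a (0.0965). With replicate number as a covariate shared by all groups, a fit added after the values were seen, 9 of 10 members (all but Car9) and 74.7% of all genes were called. Over the 8 lines the responses of Egln3 and Ndrg1 had Pearson's r of -0.88 (Spearman's rho -0.83) and r of -0.82 without the 2 lines farthest from the median, given as a description of 8 points.

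The third comparison set the lines against each other in mono-culture. All 10 members were called, as were 95.1% of all genes. Hif1a was lowest in T (271, 278, 269 and 217 CPM) and highest in H (598, 616, 579.5 and 477 CPM), a ratio of means of 2.19 (edgeR adjusted p = 1.23e-11). Vegfa was lowest in M (141, 139.7, 165 and 191 CPM) and highest in N (389, 302, 707 and 607 CPM), a ratio of 3.15. Ankrd37 had a ratio of 10.7 between KPC1 and V (22.1 without replicate 4 of V), Car9 one of 8.52 between M and V (16.4 without replicate 2 of V) and Egln1 one of 1.46 between K and M, the narrowest of the members.

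Ordered by mean, the lines ran T, E, M, N, V, K, KPC1, H for Hif1a and M, V, H, T, E, K, KPC1, N for Vegfa. No neighbors in these orders were apart beyond the range of their libraries. For Ndrg1 line H lay below all libraries of the next line, V, and for P4ha1 line H lay above all libraries of V; the other neighbors of the 10 members overlapped. Bnip3 and Ankrd37 shared 1 order, V, K, M, T, H, E, N, KPC1. Over the 8 mono-culture lines Pearson's r was 0.98 for Bnip3 with Ankrd37, 0.85 for Hif1a with Egln3 and -0.81 for Hif1a with Ndrg1. Hif1a with Vegfa had r = 0.05.

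The fourth comparison asked whether the metabolic groups differed in these genes, with the 3 clones of group 1 and 4 of group 2 as replicates. In mono-culture no member of the 9 tested was called, and neither was any of 14829 genes (0%). At an unadjusted p under 0.05, edgeR had 766 genes and no member. Ndrg1 had the smallest p among members, with clone means of 121 to 263 CPM in group 1 and 251 to 313 CPM in group 2 and a log2 difference of -0.51 (group 1 minus group 2; SE 0.27; edgeR adjusted p = 0.888). Egln3 had 0.57 (SE 0.39; adjusted p = 0.888) and Car9 -0.54 (SE 0.74; 0.928). Adm did not pass the filter on low counts. An exact permutation test over the 35 splits of the clones gave no member a p under 0.0857, where the smallest possible is 0.0286. Without clone E, 114 genes were called higher and 103 lower, again with no member. DESeq2 called 52 higher and 65 lower and no member.

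The response to coculture was compared between the groups in the same way. Of 15700 genes 1 was called (0.00637%), and no member. For Ndrg1 the response of group 1 minus that of group 2 was 1.05 on the log2 scale (SE 0.42; unadjusted p = 0.0356, adjusted p = 0.656 by edgeR), which did not pass. In group 1 its responses were 1.30 (H), 1.20 (V) and 0.05 (E). In group 2 they were -0.88 (M), -0.61 (K), 0.36 (N) and 0.39 (T). For Egln3 the difference was -0.51 (SE 0.22; unadjusted p = 0.0481, adjusted p = 0.656), which did not pass either. At an unadjusted p under 0.05, 1196 genes and these 2 members were found.

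Genes with a pattern like that of Hif1a were listed by Pearson's r of log2 CPM over the 16 combinations of line and culture, among 9114 genes with a mean of at least 10 CPM. The 5 closest were Itgb8 (r = 0.92), Sparc (0.90), Zfp81 (0.89), Dock8 (0.89) and Ogdhl (0.89). The 5 closest to Car9 were Naca (0.84), Mier2 (0.81), Gm6863 (0.81), Commd10 (0.79) and Pde6d (0.78), with the low counts of Car9 behind each value. The 16 points share 8 lines, and no member was on either list.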

How the data were processed

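RNA from the 64 libraries was sequenced after poly(A) selection with a strand-specific kit. The authors deposited raw read counts per gene (featureCounts, genome mm10, per the labels) and RPKM values for the same libraries. The aligner, the annotation and the strand setting of the counting were not given in the sources used here. RPKM was used for levels between genes and counts for all tests. The members and lists were chosen with earlier results of these data known. Genes were filtered with filterByExpr, scaled by TMM and tested with edgeR 4.0.16 in R 4.3.3 (quasi-likelihood, Benjamini-Hochberg, threshold 0.1). Responses over lines used counts summed per line and culture, and single-line tests used the libraries. CPM values are plotted as measured and a prior count of 0.5 was added before log2. Alternatives were DESeq2 1.42.0, limma 3.58.1 on log2 RPKM with 1 or 0.1 added, RLE scaling, any-count filtering, a threshold of 0.05, leaving out replicates or lines, and the libraries numbered 1 to 43 in the sample titles alone (series A). Series A held no mono-culture library of line K, so K was absent from those fits. Every library of line E was in series A, so line and series are not separate. Fits were tested on simulated data. Over lines, 41% of genes with a simulated log2 change of 0.5 were recovered, and 98% with a change of 1. For the difference in response between lines, with only line E changed, these shares were 8% and 81%. Members with small changes could therefore be missed. Named genes were all members, of each list the 3 genes past the threshold with the smallest p in each direction, and the 5 genes most like Hif1a and Car9 by Pearson's r. Promoter searches used the 250 bases before the start in place of the planned window, which also held transcribed bases. Leukocyte markers (1 of 6 tested, 1 higher) and endothelial markers (1 of 5 tested, 1 lower) were also counted, as were epithelial markers (8 of 12 tested, 1 higher and 3 lower) and immediate-early genes (14 tested, none higher and 7 lower). Part of the genotype of the lines is not reported here.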

Additional observations from a re-analysis of the deposited data

Results flagged for a closer look

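In groups of 4 libraries and over the 8 line means, the highest or lowest value was set against the gap to its nearest neighbor (Dixon's critical value). Of 190 groups 21 passed, where chance gives about 1 in 20. Of the 20 that were single libraries, 18 were numbered replicate 4 and 17 stood highest.

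Ankrd37 stood far above the other libraries in replicate 4 after coculture in V (7.31 CPM), M (6.05) and N (20.1) and in mono-culture in N (12.6), and lay below the others in replicate 1 of E in mono-culture (2.73). Bnip3 stood high in replicate 4 after coculture in V (48.2 CPM), M (85.6) and T (86.5). P4ha1 did so in mono-culture in E (85.7 CPM) and T (125) and after coculture in V (242), K (156) and T (303). Egln1 was high in replicate 4 of E in mono-culture (50.7 CPM) and of T after coculture (38.8), Egln3 in V in mono-culture (352) and Adm in T after coculture (1.24). Adm in K had 0.0671 CPM in replicate 3 of mono-culture and none in the others, a difference of 1 read. Hif1a in T (217 CPM) and Vegfa in KPC1 (228 CPM) were low in replicate 4 of mono-culture. Among line means in mono-culture, Vegfa in N (501 CPM) stood above the others.

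The response to coculture differed between lines, by the line-by-culture term of edgeR, for Ndrg1 (adjusted p = 2.13e-07), Vegfa (0.00802), Egln3 (0.0397), Egln1 (0.0535) and Hif1a (0.0965). This term was called for 71.3% of all genes, so a call is not particular to these members.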

How the results depend on the processing

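Over lines, Hif1a, Vegfa and P4ha1 kept their calls under 21 of 21 alternatives, Adm under 20 of 20 and Car9 under 16 of 21. The 20 of Adm leave out the fit without replicate 4, in which it did not pass the filter on low counts. Members called higher ranged from 3 to 7 without one replicate number and from 4 to 6 without one of the 7 clones, and members lower from 0 to 1 in both. The count of members higher was 8 in series A alone, 8 without KPC1 and 9 with libraries as replicates and the line as a covariate, which also called 1 lower. No share of all genes is given beside these counts. Genes called over lines ranged from 3615 to 3886 higher and 3660 to 3836 lower without one replicate number, and from 3374 to 4037 and 3361 to 4032 without one of the 7 clones.

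Same-numbered libraries of the 2 cultures correlated above 0.1 in 22 of 32 pairs (median 0.18), and 24 of 32 correlated best with their own number. The numbers were not taken as pairing in the main fits because not every pair passed 0.1. Any structure shared by same-numbered libraries was therefore left out of those fits. With a replicate block, 8 members were higher and 1 lower over lines, 36 pairs of member and line were higher and 7 lower, and 9 members had a line-by-culture term, as 9 did with the replicate number as a shared covariate. For the block, no share of all genes is given. At an adjusted p under 0.05, pairs higher were 16, members with a line-by-culture term 3, and genes with a lower response in group 1 were 0. Series A alone gave 3 members with that term, 2 genes lower in group 1 in mono-culture and 0 genes with a lower response, and a reversed Ankrd37 in V (-0.20). Without one replicate number, pairs ranged from 19 to 23 higher and 3 to 4 lower, members differing between lines from 9 to 10 and members with the term from 2 to 5.

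For the groups, any-count filtering gave 1 gene lower in mono-culture and 2 with a higher response. Coculture libraries gave 1 gene lower and a reversed Ndrg1 (0.37). The 28 libraries as replicates gave 1854 genes higher and 2071 lower, with 1 member each way. DESeq2 gave 52 and 65 genes, and for the response 45 and 142. Without one clone, genes ranged from 0 to 114 higher and 0 to 103 lower (the highest without E), and responses from 0 to 18 and 0 to 30. Without one replicate number responses ranged from 0 to 1 both ways. Over lines, r of Hif1a turned negative without the 2 farthest lines for Egln1 (-0.0498), Bnip3 (-0.0095) and Ankrd37 (-0.0728). The cause of these changes was not tested. Car9 and Adm are limited by depth.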
